A study of Mus musculus with 12 samples.

Results

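The genes described here encode granule proteins and receptors of eosinophils, 10 in all: Epx, Prg2, Prg3, Ear1, Ear2, Ear6, Ccr3, Il5ra, Alox15 and Siglecf. They were listed by name, and each was read from the transcript cluster (the array's probe group for 1 transcript unit) that names that gene alone and has the highest mean. This gave 1 transcript cluster for each of 8 genes; Ear1 and Ear2 have no transcript cluster that names them and no level here. The 8 are among 17807 genes tested, and all 8 passed the filter on low values. RNA came from the hind leg marrow of 6 mice homozygous for the E4bp4 knockout (E4bp4-/-) and 6 wild type mice (E4bp4+/+), 1 GeneChip Mouse Gene 1.0 ST array per mouse. Before RNA extraction, cells bearing CD11b, GR1, B220, CD2, Ter119 or NK1.1 were removed with magnets from the marrow of all 12 mice. Strain, sex, age and the deleted part of E4bp4 are not given in the sources used here. E4bp4, also called Nfil3, is a basic leucine zipper transcription factor, and the study asked which marrow genes it regulates.

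Eosinophils are granulocytes made in the marrow from myeloid progenitors. GATA1 and C/EBP factors drive their formation, and interleukin 5 their expansion and survival. Granule genes such as Epx and Prg2 are switched on early, in eosinophil progenitors, while receptors such as CCR3 and Siglec-F mark more mature cells. Mature eosinophils carry CD11b, an antigen of the depletion. In RNA of mixed cells, fewer cells of a type and less RNA per cell cannot be told apart.

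As background to the gene set, the stretch of DNA upstream of the start site is shown for 6 members. Whether it bears on the levels measured here was not tested. The sequences are RefSeq's for assembly GRCm38.p6, the 250 bases before each annotated start, read 5′ to 3′. Promoters were found for 8 of the 10 members. Capitals mark a GATA factor core (AGATAA, or the same letters with T as the first base, G as the last base or both, on either strand) in Prg3, Il5ra and Ccr3, the TATA box (TATAAA, sense strand) in Epx, and the C/EBP-like motif TTGCNNAA (either strand) in Ear2. Ear6 is shown to set it against Ear2, a member with no level here.
Epx, chr11:87875537-87875786, - strand: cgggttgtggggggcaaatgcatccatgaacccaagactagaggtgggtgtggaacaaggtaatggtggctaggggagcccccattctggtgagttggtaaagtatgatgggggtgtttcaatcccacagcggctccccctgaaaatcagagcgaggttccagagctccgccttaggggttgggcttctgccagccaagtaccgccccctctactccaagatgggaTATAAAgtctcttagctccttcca
Prg3, chr2:84987965-84988214, + strand: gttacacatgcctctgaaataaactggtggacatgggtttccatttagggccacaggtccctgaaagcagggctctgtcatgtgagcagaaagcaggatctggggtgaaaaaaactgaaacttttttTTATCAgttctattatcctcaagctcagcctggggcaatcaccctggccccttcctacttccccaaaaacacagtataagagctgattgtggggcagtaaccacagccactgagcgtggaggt
Il5ra, chr6:106749038-106749287, - strand: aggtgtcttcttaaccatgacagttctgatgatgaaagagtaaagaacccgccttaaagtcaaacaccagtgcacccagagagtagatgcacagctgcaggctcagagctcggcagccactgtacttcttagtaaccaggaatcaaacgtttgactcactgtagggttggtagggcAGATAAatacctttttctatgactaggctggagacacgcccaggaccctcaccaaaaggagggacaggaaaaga
Ccr3, chr9:124021721-124021970, + strand: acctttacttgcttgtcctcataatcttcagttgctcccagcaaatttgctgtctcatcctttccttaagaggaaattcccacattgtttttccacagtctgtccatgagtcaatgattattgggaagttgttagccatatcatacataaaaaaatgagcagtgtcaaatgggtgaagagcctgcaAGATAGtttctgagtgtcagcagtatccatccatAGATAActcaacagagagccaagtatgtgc
Ear2, chr14:44102404-44102653, + strand: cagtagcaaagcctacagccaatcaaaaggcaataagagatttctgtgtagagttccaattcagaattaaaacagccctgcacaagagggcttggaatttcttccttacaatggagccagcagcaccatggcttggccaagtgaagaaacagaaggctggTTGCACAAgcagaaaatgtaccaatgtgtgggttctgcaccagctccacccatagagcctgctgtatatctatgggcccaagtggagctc
Ear6, chr14:51853518-51853767, + strand: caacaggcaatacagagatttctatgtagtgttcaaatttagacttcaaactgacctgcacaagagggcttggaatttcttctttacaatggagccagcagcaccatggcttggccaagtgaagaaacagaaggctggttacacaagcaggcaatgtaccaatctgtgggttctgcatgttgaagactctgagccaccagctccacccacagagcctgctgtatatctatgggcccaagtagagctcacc

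Motifs were counted in the whole window, 250 bases before to 50 after the start. A GATA factor core was present in 4 of the 8 member promoters, namely Prg3, Il5ra, Ccr3 and Siglecf, against 29.8% of 32851 promoters in the table. It began 74 bases before the start in Il5ra, 64 and 30 before it in Ccr3, and 123 before it, on the antisense strand, in Prg3. In Siglecf both matches lay just after the start. The E4BP4 site, TTACGTAA or TTATGTAA on either strand, was in 0 of the 8 and in 1.06% of all promoters. The C/EBP-like motif was in 2 of the 8, Ear1 and Ear2, and in 10.8% of all. The TATA box was in 1, Epx, and in 8.32% of all. These are matches of letters in one window and say nothing of binding. The Ear genes are near copies of each other: the windows of Ear1 and Ear2 were identical at 98.7% of aligned positions, and Ear6 matched them at 86.6% and 86.2%. Transcripts of such copies can share probes, so the Ear6 signal is uncertain.

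Across the series, correlations between arrays lay between 0.986 and 0.9955 over 34760 transcript clusters. Nfil3, the targeted gene, was at 6.34, 6.38 and 6.92 log2 (lowest, median and highest) in E4bp4-/- mice and at 6.94, 7.11 and 7.66 in E4bp4+/+ mice, with no overlap. It differed by -0.68 ± 0.13 log2 (SE), with an exact permutation p of 0.00216, the smallest that permuting the 12 arrays can give, and a limma adjusted p of 0.14. In limma 0 of 29541 transcript clusters passed an adjusted p of 0.05, while 4391 had an unadjusted p under 0.05. Knockout replicate 1 stood apart: Xist, the X-inactivation RNA, was at 6.08 there and at 12.1 to 12.65 on the other arrays, and the Y-linked Eif2s3y at 7.37 there and at most 4.13 elsewhere. By these genes that mouse reads as male and the other mice as female. Sex and other traits of that mouse cannot be told apart. Of the depletion antigens, Cd2 and Ly6g averaged 5.19 and 4.97 in E4bp4+/+ mice, near the 20th percentile of the arrays (4.93 to 4.99), and Itgam, which encodes the CD11b chain, 7.39. Ptprc, the gene of the CD45 proteins, of which B220 is 1 form, averaged 8.75, but leukocytes of all kinds express it. Kit, a receptor of progenitors, averaged 11.07. For many counts, medians and differences, values without knockout replicate 1 are given too.

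The genotypes did not differ detectably in any of the 8 eosinophil genes, and single mice of either genotype differed far more. Of the 8 genes, 5 were higher and 3 lower in the knockout, and the median difference was 0.027 log2, against 0.015 over all transcript clusters tested. In limma 0 of the 8 had an unadjusted p under 0.05, where 14.9% of all transcript clusters did, and 0 passed the adjusted threshold, as did 0% of all. The arrays of the genotypes overlapped for all 8 genes, while 1.27% of all transcript clusters did not overlap. Adjusted p-values of the 8 genes ran from 0.707 to 0.993.

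**Figure D1:**
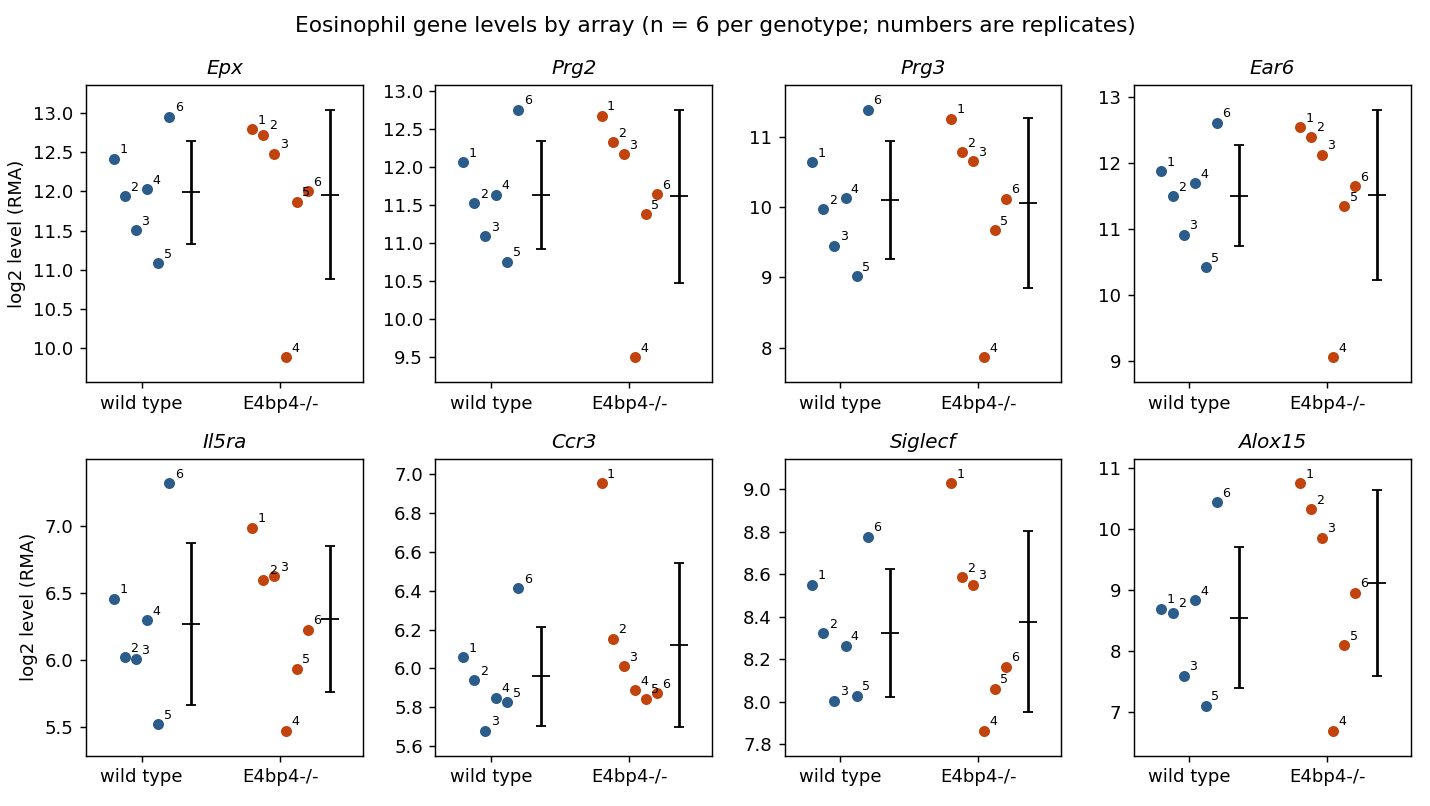
Level of each of the 8 measured eosinophil genes (log2, RMA) on each array, by genotype (wild type blue, E4bp4-/- red); numbers are replicate numbers, and the black mark and bar are the mean and SD of 6 arrays. The genotypes overlap in every panel, and knockout replicate 4 is the lowest array in 7 of the 8.

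Among the granule proteins, Epx encodes eosinophil peroxidase, an enzyme that makes bactericidal oxidants. Its log2 level was 9.88, 12.24 and 12.8 (lowest, median and highest of 6) in E4bp4-/- mice and 11.08, 11.99 and 12.96 in E4bp4+/+ mice. Knockout replicate 4 was the lowest of all 12 arrays and wild type replicate 6 the highest. The means were 11.96 ± 1.09 (SD) in E4bp4-/- mice and 11.99 ± 0.66 in E4bp4+/+ mice. The difference was -0.03 ± 0.47 log2 (SE), with a 95% interval from -1.04 to 0.98 (limma adjusted p 0.986, exact permutation p = 0.95). In linear terms that interval reaches from 0.486 to 1.98 times the wild type level. With 6 mice per genotype the data do not exclude a change within those bounds.

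Prg2 encodes major basic protein, the toxic core protein of the eosinophil granule, which basophils and mast cells also make. It was at 9.5, 11.91 and 12.68 log2 in E4bp4-/- mice and at 10.75, 11.58 and 12.76 in E4bp4+/+ mice (lowest, median, highest). The same arrays as for Epx were lowest and highest. Prg3, a homologue of major basic protein, was at 7.86, 10.39 and 11.26 in E4bp4-/- mice and at 9.02, 10.06 and 11.4 in E4bp4+/+ mice. Ear6, an eosinophil-associated ribonuclease, was at 9.05, 11.88 and 12.54 in E4bp4-/- mice and at 10.41, 11.59 and 12.61 in E4bp4+/+ mice. Knockout replicate 4 thus held the lowest level of every granule gene, and knockout replicate 1 and wild type replicate 6 the highest level in their genotypes. Differences were -0.02 ± 0.49 log2 (SE) for Prg2, -0.04 ± 0.54 for Prg3 and 0.02 ± 0.55 for Ear6. Their 95% intervals ran from -1.09 to 1.05, from -1.22 to 1.13 and from -1.17 to 1.21.

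Among the receptors, Il5ra encodes the alpha chain that gives the interleukin 5 receptor its specificity. It was at 5.47, 6.41 and 6.98 log2 in E4bp4-/- mice and at 5.52, 6.16 and 7.31 in E4bp4+/+ mice (lowest, median, highest). Wild type replicate 6 was the highest array, and knockout replicate 4 the lowest, close to wild type replicate 5. The difference was 0.04 ± 0.30 log2 (SE), with a 95% interval from -0.61 to 0.69. Ccr3 encodes the eotaxin receptor that guides eosinophils into tissues. It was at 5.84, 5.95 and 6.95 in E4bp4-/- mice and at 5.68, 5.89 and 6.41 in E4bp4+/+ mice. Only knockout replicate 1 was above 6.41, and 10 of the 12 arrays lay between 5.68 and 6.15. Ccr3 differed by 0.16 ± 0.18 log2 (95% interval -0.24 to 0.56), and by -0.0063 without knockout replicate 1. Siglecf encodes a sialic acid binding lectin of eosinophils and some macrophages. It was at 7.86, 8.36 and 9.03 in E4bp4-/- mice and at 8, 8.29 and 8.78 in E4bp4+/+ mice, a difference of 0.05 ± 0.19 log2 (95% interval -0.37 to 0.47). For Siglecf the extremes of the 12 arrays were both knockout arrays, replicate 4 at the bottom and replicate 1 at the top. Il5ra and Ccr3 had the lowest levels of the 8 genes, with means of 6.27 and 5.96 in E4bp4+/+ mice. Low levels can compress differences, which was not tested. The same holds for Nfil3, with a mean of 6.49 in E4bp4-/- mice.

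Alox15 encodes an arachidonate lipoxygenase found in eosinophils and resident macrophages. It had the widest range of the 8 genes, at 6.69, 9.41 and 10.75 log2 in E4bp4-/- mice and at 7.11, 8.66 and 10.44 in E4bp4+/+ mice. The lowest and highest of the 12 arrays, knockout replicates 4 and 1, lay 4.06 log2 apart, a 16.7-fold range within 1 genotype. The knockout minus wild type difference was 0.56 ± 0.70 log2 (SE), with a 95% interval from -0.96 to 2.08, an exact permutation p of 0.474 and a limma adjusted p of 0.732. It was 1.05 without knockout replicate 4 and 0.24 without knockout replicate 1.

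**Figure D2:**
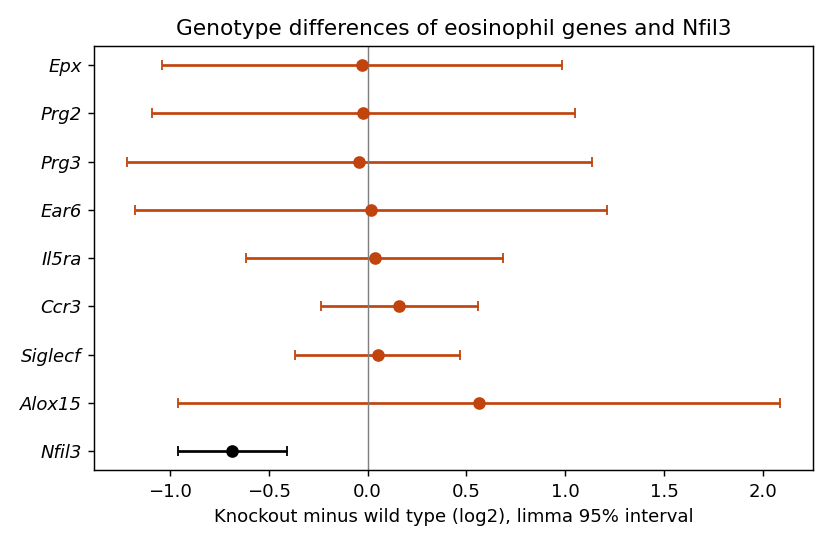
Knockout minus wild type difference (log2) of the 8 eosinophil genes (red) and Nfil3 (black); points are limma estimates and bars their 95% intervals, n = 6 per genotype. The intervals of the 8 eosinophil genes include 0, from the narrow one of Ccr3 (-0.24 to 0.56) to that of Alox15 (-0.96 to 2.08).

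Single arrays moved these differences. Leaving out 1 array at a time, that of Epx ran from -0.21 without wild type replicate 5 to 0.39 without knockout replicate 4. Ear6 ran from -0.20 to 0.51 and Prg3 from -0.28 to 0.40, its ends reached by leaving out knockout replicates 1 and 4. All 8 differences were positive without knockout replicate 4, without wild type replicate 1 and without wild type replicate 6, and 1 of 8 was without knockout replicate 1. Without that last array the median of the 8 was -0.144 log2. Epx then differed by -0.20, Prg2 by -0.23, Ear6 by -0.19, Il5ra by -0.10 and Siglecf by -0.079. The lowest adjusted p of any of the 8 genes with 1 array left out was 0.435, for Alox15.

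Within each genotype, eosinophil genes were among the most variable of the array. The pooled SD within genotype was 0.90 log2 for Epx, 0.95 for Prg2, 1.04 for Prg3, 1.06 for Ear6 and 1.35 for Alox15. The median over all 29541 transcript clusters was 0.113. Only 58 of them, Epx included, had a pooled SD at least as large as that of Epx, and 7, Alox15 included, one at least as large as that of Alox15. For the receptors the pooled SD was 0.58 (Il5ra), 0.35 (Ccr3) and 0.37 (Siglecf), above those of 98.8%, 92.7% and 93.8% of transcript clusters. The SD was larger in the knockout for 7 of the 8 genes; Il5ra was the exception, at 0.55 in E4bp4-/- mice and 0.60 in E4bp4+/+ mice. For Epx the knockout SD was 1.64 times that of the wild type. That width came from knockout replicate 4, at 9.88 log2. The other knockout arrays, at 11.87 to 12.8, lay inside the wild type range of 11.08 to 12.96. Ear6 was alike, at 9.05 in knockout replicate 4 and 11.34 to 12.54 in the others, beside 10.41 to 12.61 in E4bp4+/+ mice. Because the 8 genes move together, the count of 7 largely repeats the same few arrays. A difference in spread between the genotypes was not tested.

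**Figure D3:**
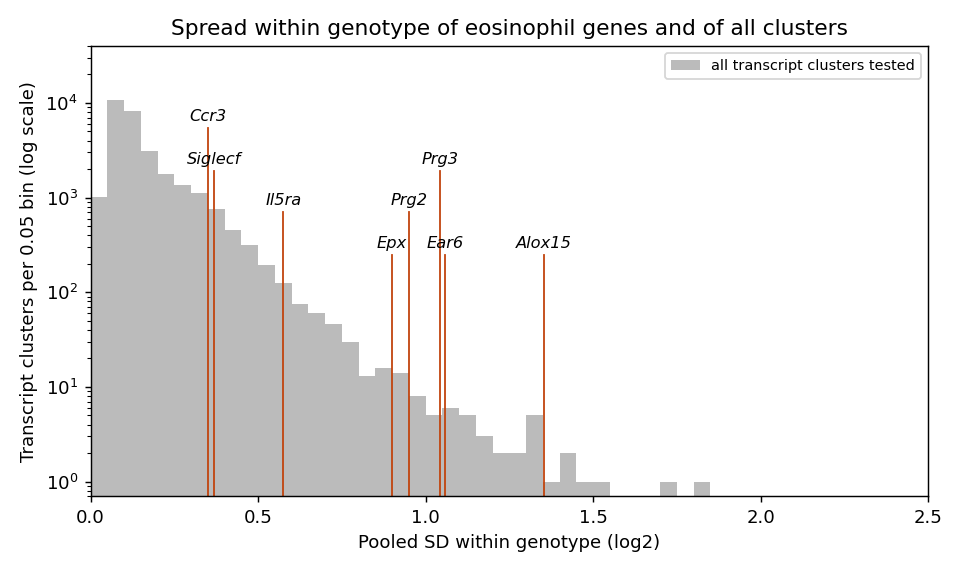
Pooled SD within genotype (log2) of all 29541 transcript clusters tested (grey, number per bin of 0.05, log axis) and of the 8 eosinophil genes (red lines, whose heights only separate the names). Epx, Prg2, Prg3, Ear6 and Alox15 lie at 0.90 to 1.35, far out in the tail of a distribution with a median of 0.113.

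The 8 genes kept nearly the same order of mice. Knockout replicate 4 was the lowest array for 7 of them, the exception being Ccr3, and wild type replicate 5 the second lowest for 7. The highest array was wild type replicate 6 for 5 genes and knockout replicate 1 for 3. Averaged over the 8 genes, each centred on its own mean, knockout replicate 4 was at -1.56 log2 and wild type replicate 5 at -0.87. At the other end stood knockout replicate 1 at 1.04, wild type replicate 6 at 0.99 and knockout replicate 2 at 0.65. Arrays of both genotypes were thus interleaved along the whole range.

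**Figure D4:**
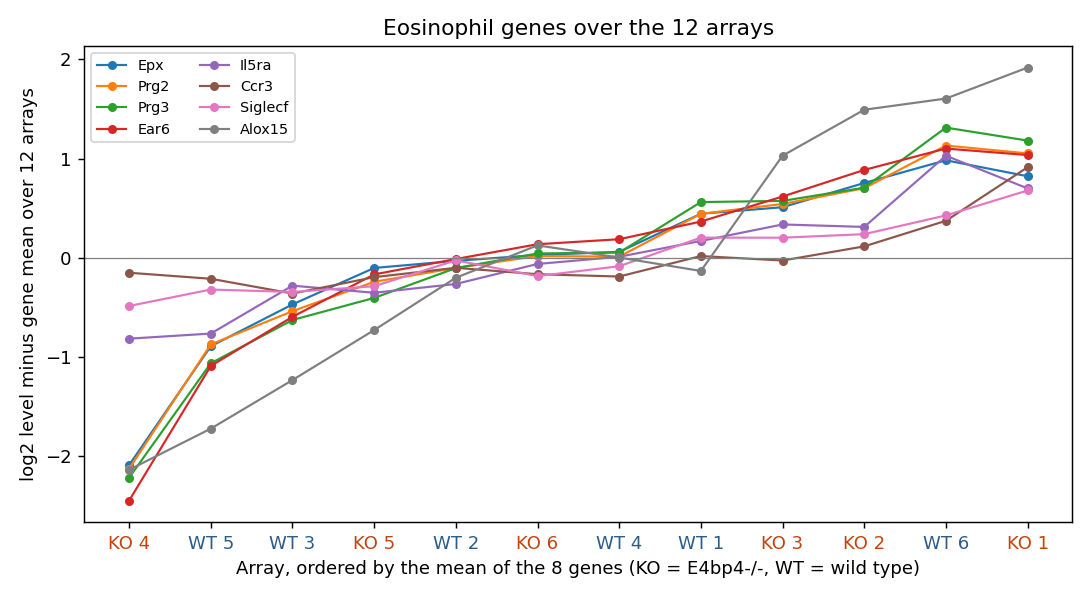
Level of each of the 8 genes minus its mean over 12 arrays (log2), with the arrays ordered by the mean of the 8 (KO, E4bp4-/-; WT, wild type). Lines of all 8 genes climb from knockout replicate 4 (mean -1.56) to knockout replicate 1 (mean 1.04), and the genotypes are mixed along the axis.

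The granule genes moved as 1 set. Over 12 arrays, Pearson's r between Epx and Ear6 was 0.997 and Spearman's rho 1 (permutation p = 1e-05 for both, the smallest that 100000 resamples can give). Without the 2 arrays farthest from the Epx median, r was 0.992. The lowest r among the 6 pairs of granule genes was 0.987, and 0.98 without such arrays. Epx and Alox15 had r 0.917 and rho 0.965 (permutation p = 1e-05 for both), and r 0.948 without those 2 arrays. Epx and Il5ra had r 0.895 (permutation p = 3e-05) and rho 0.986 (permutation p = 1e-05), and r 0.952 without them. Of all 28 pairs of members, Epx and Ccr3 had the lowest r, 0.581, with rho 0.832 (permutation p = 0.07 and 0.001), and r 0.71 without those 2 arrays. Adjusted over the 28 pairs with Benjamini-Hochberg, permutation p-values ran from 2.2e-05 to 0.07 for r and from 1.9e-05 to 0.004 for rho. The relation was present in both genotypes: r over the 28 pairs ran from 0.849 to 0.9994 within E4bp4+/+ mice and from 0.505 to 0.9992 within the knockout, with 6 arrays each. Without knockout replicate 1 it ran from 0.612 to 0.997.

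The non-granule members were also set against the granule genes of the same array. Alox15 minus the mean of the 4 granule genes was -2.17 ± 0.51 log2 (SD) in E4bp4-/- mice and -2.75 ± 0.47 in E4bp4+/+ mice, a measure chosen after the values were seen. The genotypes overlapped, from -2.96 to -1.57 in E4bp4-/- mice and from -3.21 to -1.99 in E4bp4+/+ mice, where replicate 6 was the highest. The difference of 0.58 log2 was 0.46 without knockout replicate 1, and it was not tested. The same measure differed by 0.05 for Il5ra, 0.07 for Siglecf and 0.18 for Ccr3, and by 0.12, 0.15 and 0.22 without knockout replicate 1. Its SD among E4bp4-/- mice was 0.69, 0.85 and 1.01 for these genes, beside 0.51 for Alox15. Slopes of their log2 levels on that of Epx over 12 arrays were 0.57, 0.35 and 0.23, and 1.41 for Alox15. With slopes unlike 1, the measure still carries spread of the granule genes themselves.

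Of the 17799 other genes, the 5 most like the eosinophil mean over the 12 arrays were Gapt, Ikzf3, Rnase12, Nucb2 and Olr1. Gapt, a transmembrane adaptor of haematopoietic cells, had r 0.986 and rho 0.993. Ikzf3, the zinc finger factor Aiolos, had r 0.968 and Rnase12, of the same ribonuclease superfamily as the Ear genes, 0.961. Nucb2, a calcium binding nucleobindin, had r 0.96 and Olr1, a receptor for oxidised lipoprotein, 0.959. Gapt was lowest in knockout replicate 4, at 7.93 log2, and highest in knockout replicate 1, at 10.81. Its means were 9.58 ± 1.06 (SD) in E4bp4-/- mice and 9.35 ± 0.76 in E4bp4+/+ mice. In all 5 the lowest knockout array was replicate 4 and the lowest wild type array replicate 5. Without knockout replicate 1 r was 0.984 for Gapt, and 4 of the 5 genes were still among the first 5. These values, and those of the gene lists, describe likeness over 12 arrays that were normalised together, and carry no test.

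Genes of the interleukin 5 pathway were read from a list of receptor chains, kinases, targets and ligands. Of 16 tested besides Il5ra, 0 were higher and 1 lower at an unadjusted limma p under 0.05, where 8.47% and 6.39% of all transcript clusters were. That one was Cish, a feedback inhibitor of cytokine receptors, at -0.34 ± 0.11 log2 (limma adjusted p 0.226). The list's median difference was 0.072 log2, and 0.015 without knockout replicate 1. Without that array 1 gene was higher and 1 lower at an unadjusted limma p under 0.05, beside 8.42% and 5.14% of all transcript clusters. Csf2rb, the beta chain that interleukin 5, interleukin 3 and GM-CSF receptors share, was at 9.27 ± 0.57 (SD) in E4bp4-/- mice and 9.11 ± 0.38 in E4bp4+/+ mice. It followed the eosinophil mean over the arrays with r 0.897, as did the related chain Csf2rb2 with 0.788 and the GM-CSF receptor chain Csf2ra with 0.769. Il3ra differed by 0.16 ± 0.079 log2, Bcl2l1, a survival gene, by 0.10 ± 0.050, and Stat3 by 0.19 ± 0.11, or 0.10 without knockout replicate 1. The signal transducer Stat5a ran the other way from the eosinophil mean, with r -0.786.

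Of 14 regulators of eosinophil development, 1 was higher and 1 lower at an unadjusted limma p under 0.05, near the background of 8.47% and 6.39%, and 0 passed the adjusted threshold. Gata2, a factor of early progenitors and mast cells, differed by 0.17 ± 0.052 log2 and Id2, an inhibitor of E proteins, by -0.77 ± 0.28 (limma adjusted p 0.214 and 0.255). Ikzf2 and Xbp1, the latter needed for eosinophil survival, differed by 0.17 ± 0.085 and 0.15 ± 0.086, and by 0.11 and 0.096 without knockout replicate 1. Cebpe, the C/EBP factor of late granulocyte maturation, was at 8.7 ± 0.74 (SD) in E4bp4-/- mice and 8.66 ± 0.44 in E4bp4+/+ mice. Its r to the eosinophil mean was 0.94, the only one of the 14 over 0.7. Gata1, which eosinophils need and which erythroid cells and megakaryocytes also express, had r -0.586.

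A further list held other eosinophil ribonucleases, receptors and lipid mediator genes, some of them shared with other myeloid cells. Of 27 tested, 1 was higher and 2 lower at an unadjusted limma p under 0.05, beside a background of 8.47% higher and 6.39% lower. The median difference was 0.078 log2, and 0.030 over the 26 genes tested without knockout replicate 1. The lower ones were the chemokine Ccl5, at -0.23 ± 0.058, and Cd24a, at -0.15 ± 0.060; the higher one was the protease inhibitor Serpinb2, at 0.18 ± 0.068. Ptgdr2, a prostaglandin receptor, differed by 0.12 ± 0.056. Without knockout replicate 1, 1 of the 26 genes was higher and 1 lower at that unadjusted limma p, beside 8.42% and 5.14% of all transcript clusters. Of the 27, 9 had r over 0.7 to the eosinophil mean, a bound chosen after seeing the data, where 2.84% of all 17799 genes did. Among them were the UDP-sugar receptor P2ry14 (0.906), the leukotriene enzyme Alox5 (0.847) and the ribonuclease Rnase2b (0.797). Others on the list did not follow: Itga4 had r -0.132, Ptgdr2 -0.125 and Cd24a -0.122. Cysltr2 ran the other way, with r -0.728, where 1.89% of all genes were under -0.7. The list's mean level lay between 6.96 and 7.59 in E4bp4-/- mice and between 6.96 and 7.24 in E4bp4+/+ mice.

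Some genes listed as markers of other myeloid cells also moved with the eosinophil genes from mouse to mouse. Which cells expressed them was not measured. Of 7 genes listed as markers of neutrophil primary granules, 5 had r over 0.7. They were Elane, neutrophil elastase (0.812), Nkg7 (0.817), Cst7 (0.768), Ms4a3 (0.764) and Ctsg (0.713). Mpo and Prtn3, at 0.651 and 0.681, did not reach 0.7. Of 17 basophil and mast cell genes, 8 did, including Hdc, which makes histamine (0.889), and the basophil proteases Prss34 (0.806) and Mcpt8 (0.774). Among those that did not were Kit (-0.455), the tryptase Tpsb2 (-0.256), the chymase Cma1 (0.093) and Mcpt4 (0.188). Later neutrophil granule genes had 4 of 16 over 0.7, with S100a8 at 0.78, and monocyte and macrophage genes 3 of 13. Among these, Cebpe and Retnlg (later granule) and Adgre1 (monocyte and macrophage) were also counted in the eosinophil lists above. Of 4 genes of depletion antigens, Itgam, the chain of CD11b, had r 0.879, and Ptprc, which is not a reading of B220 alone, 0.765. Of 6 progenitor genes 0 did. Without knockout replicate 1 these counts were 4 of 7, 4 of 17, 3 of 16, 4 of 13, 2 of 4 and 0 of 6, beside 2.07% of all genes. The summed pattern was alike: r of the list mean to the eosinophil mean was 0.763 for primary granule, 0.775 for basophil and mast cell, 0.708 for later granule, and 0.698 for monocyte and macrophage genes. It was 0.763 for the depletion antigens and 0.362 for the progenitor genes. Without knockout replicate 1 these were 0.702, 0.717, 0.720, 0.793, 0.884 and 0.115.

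**Figure D5:**
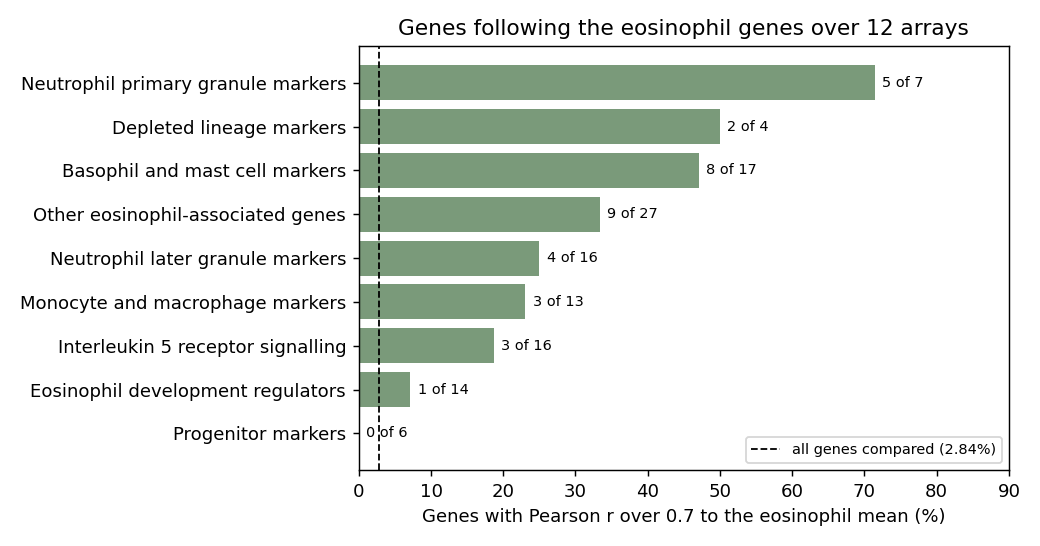
Percentage of each list's tested genes with Pearson's r over 0.7 to the mean of the 8 eosinophil genes over 12 arrays; counts stand beside the bars, and the dashed line is the share over all 17799 genes (2.84%). Genes listed for neutrophil primary granules (5 of 7) and for basophils and mast cells (8 of 17) lie far above the line. Progenitor genes (0 of 6) lie at 0.

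Levels of these lists overlapped between the genotypes. Primary granule list means ran from 11.35 to 12.7 log2 in E4bp4-/- mice and from 11.54 to 12.41 in E4bp4+/+ mice, and basophil and mast cell means from 7.36 to 8.24 and from 7.29 to 8.02. Later granule means ran from 6.27 to 8.58 and from 6.29 to 7.17, monocyte and macrophage means from 6.82 to 8.19 and from 6.81 to 7.25. Depletion antigens ran from 6.39 to 7.59 and from 6.35 to 6.78, and progenitor genes from 10.06 to 10.38 and from 9.88 to 10.13. In each of these 6 lists the highest array was knockout replicate 1; without it the highest knockout means were 12.21, 7.92, 7.16, 7.21, 6.81 and 10.21, in the order of the lists above. Knockout replicate 4, lowest in 7 eosinophil genes, had the lowest knockout mean of the primary granule, later granule, basophil and mast cell, and depletion antigen lists. Whether these other cells contribute to the spread of the eosinophil genes was not tested.

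At an unadjusted limma p under 0.05, where 8.47% of all transcript clusters were higher and 6.39% lower, 0 neutrophil primary granule, 0 later granule, 0 monocyte and macrophage and 0 depletion antigen genes were called. Basophil and mast cell genes had 3 of 17 higher and 0 lower: Gata2, Kit (0.19 ± 0.064 log2) and the tryptase Tpsb2 (0.08 ± 0.034); the chymase Cma1 was at 0.09 ± 0.043. Progenitor genes had 5 of 6 higher, such as the cytokine receptor Flt3 (0.36 ± 0.11), Kit, Sox4 (0.14 ± 0.054) and Myb (0.11 ± 0.049). Without knockout replicate 1 the progenitor count was 3 of 6, that of basophil and mast cell genes 3 of 17, and that of later granule genes 2 of 16, all higher, beside 8.42% of all transcript clusters; Flt3 was then at 0.28. Recomputing the lists without that array was chosen after seeing the data. None of these passed the adjusted threshold of limma. Kit, Gata2, Cebpe, Retnlg, Adgre1 and Ly6g each stand in more than 1 list. Of all transcript clusters with an unadjusted p under 0.05, 57% were higher in the knockout with the deposited values and 22% once every array was centred on its own median, so a share of higher genes depends on the scaling. Median differences were 0.016 log2 for primary granule, 0.353 for later granule, 0.124 for basophil and mast cell, 0.152 for monocyte and macrophage, 0.201 for depletion antigen and 0.167 for progenitor genes, and 0.120 for the 14 developmental regulators. Without knockout replicate 1 these medians were -0.142, 0.076, 0.094, -0.0066, 0.0073, 0.159 and -0.013. Those of the later granule, monocyte and macrophage, depletion antigen and regulator lists were thus much smaller in size. The primary granule median went from slightly positive to negative. Such medians are given here for no other left-out array. Retnlg, a resistin-like gene of neutrophils, differed by 0.53 ± 0.39 with all arrays and by 0.21 without knockout replicate 1. In the same order Mmp8 differed by 0.42 and 0.19, Cd177 by 0.29 and 0.14, and Itgb2l by 0.15 and 0.073. Mrc1 differed by 0.28 and 0.030, Mertk by 0.20 and 0.012, Cd163 by 0.13 and 0.039, Ly6g by 0.27 and 0.0055, Itgam by 0.30 and 0.052, and Ptprc by 0.13 and 0.0091. Of the primary granule markers, Cst7 differed by 0.14 and -0.035, Elane by -0.04 and -0.14, Mpo by 0.017 and -0.036, and Ctsg by 0.016 and -0.11. Fcgr1, an antibody receptor of monocytes, differed by 0.078 and 0.069, and Cd2 by 0.028 and -0.0049.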

How the data were processed

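GeneChip Mouse Gene 1.0 ST arrays measured RNA of 12 lineage-depleted marrow samples, 1 mouse each. The deposited values are log2 levels per transcript cluster, made by the authors with GeneSpring GX 11 and RMA16, per the labels' series design text; the log2 scale was inferred from their range, 3.18 to 14.33. Because RMA gives arrays alike distributions, a change shared by most genes could not be seen. The sources used here do not give the probe annotation behind these values. Samples were grouped by the genotype in the labels.

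Transcript clusters at or above the 20th percentile on at least 1 array were kept, 29541 of 34760. Platform annotation named 1 gene for 21640; 21553 were found in a RefSeq table, which changed 0 symbols. Knockout minus wild type was fitted in R 4.3.3 by limma 3.58.1 (lmFit, eBayes, Benjamini-Hochberg, two-sided), and single genes by two-sided exact permutation. The limma step was tested on simulated data. Likeness is Pearson's r to the mean of the 8 genes, each centred; correlations between members used 100000 resamples. Named were all members, Nfil3, Xist, Eif2s3y, the 4 genes with the lowest p in each list and the 5 most like genes; others were named after their values were seen, for their correlation. The members and lists were chosen with earlier results of these data known. Alternatives covered filter, scaling, trend, array weights, the replicate number as a block, row choice and left-out arrays. The number of arrays limits precision.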

Additional observations from a re-analysis of the deposited data

Results flagged for a closer look

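The highest or lowest of 6 arrays was picked out when it stood farther from its neighbour, relative to the spread of that genotype, than Dixon's 95% critical value. Of 102 such sets 14 held an array like that, 11 of them in knockout replicate 1. For independent sets chance gives about 1 in 20, or 5.1. These sets move together over the arrays and were partly named by their values, so the count is no test of an excess.

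Knockout replicate 4 was low in the granule genes: Epx was at 9.88 log2, against 11.87 to 12.8 in the other knockout arrays, and Ear6 at 9.05, against 11.34 to 12.54. Knockout replicate 1 was high in Ccr3, at 6.95 against at most 6.15 in the other knockout arrays.

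In knockout replicate 1, genes of other myeloid cells were also high. The neutrophil genes Cd177, Mmp8, Itgb2l and Ly6g were at 7.80, 6.59, 6.89 and 6.55 log2, against at most 7, 5.41, 6.51 and 5.31 in the other knockout arrays. The macrophage genes Cd163, Mrc1 and Mertk were at 6.60, 7.11 and 7.72, against at most 6.15, 5.83 and 6.73. Flt3 was at 10.01, against at most 9.6. The sex-linked Xist and Eif2s3y were at 6.08 and 7.37, against at least 12.33 and at most 4.08. In the wild type, Nfil3 was at 7.66 in replicate 1, against at most 7.18 in the others.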

How the results depend on the processing

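None of the 8 eosinophil genes passed an adjusted p of 0.05 under any alternative run, and 0 of 8 had an unadjusted p under 0.05 under any of them. Their median difference ran from -0.156 (without wild type replicate 5) to 0.393 (without knockout replicate 4) with 1 array left out. Each array centred on its median gave -0.0134. The count of transcript clusters past the adjusted threshold was 0 in limma (4391 at an unadjusted p under 0.05), 5 with array weights, from 0 to 4 with 1 array left out, and 1 without both knockout replicates 1 and 4, an alternative chosen after seeing the data; the cause was not tested. The highest, 4, came without knockout replicate 1. Nfil3 ran from -0.769 to -0.585 with 1 array left out and stayed above the adjusted threshold throughout. Labels give no meaning to the replicate numbers, which were not taken as pairs: deviations from the genotype means of same-numbered arrays correlated above 0.1 for 3 of 6 numbers, from -0.033 to 0.46, and 3 of 6 knockout arrays correlated best with their own number, a hint from the data only. With the number as a replicate block 0 transcript clusters and 0 of the 8 genes passed, and Nfil3 was at -0.683 (limma adjusted p 0.173). Each member has 1 transcript cluster, so averaging over clusters changed nothing. Of the 5 genes most like the eosinophil mean, 4 were kept without knockout replicate 1, 5 in deviations from the genotype means and 4 without knockout replicate 4, the last chosen after seeing the data. Il5ra and Ccr3 had the lowest levels of the 8 genes, which may limit what their differences can show.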
